A study of Mus musculus with 12 samples.

Results

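Nog, Grem1, Chrdl1, Bambi, Id1, Id2, Id3 and Id4 belong to bone morphogenetic protein (BMP) signalling, as secreted antagonists, a membrane-bound inhibitor and response genes. Their RNA was followed in sorted cells of the mouse dermal papilla, the cluster of mesenchyme that each hair follicle encloses at its base. The 8 genes were taken by symbol from the 25887 genes of the deposited tables. All 8 passed the filter on low values, a mean normalized count of at least 10, in each comparison.

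The 12 libraries formed 4 groups of 3. P28 Smo* libraries came from males at postnatal day 28 (P28) in anagen (I-III), the start of hair growth, and P28 WT libraries from males of that age in Anagen VI, full growth. P20 Smo* and P20 WT libraries came from females at postnatal day 20 (P20) in telogen, the resting stage. In Smo* mice the dermal papilla carries a gain-of-function allele of Smo, the signal transducer of the Hedgehog pathway in the cell membrane, and WT mice are wild type. Which promoter drives the allele is not given in the sources used. At P28 genotype changes together with labelled stage, and between the ages stage changes together with sex, so these cannot be told apart. No label ties libraries to separate animals, so p-values speak only for the spread of these 12 samples, and that spread may be technical.

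BMP ligands bind paired type I and type II receptors on the cell surface, which phosphorylate Smad proteins that enter the nucleus with Smad4 and switch target genes on or off. Noggin, gremlin and chordin-like proteins bind the ligands outside the cell and keep them from the receptors, and Bambi is a pseudoreceptor that lacks a kinase domain. Id genes are classical direct targets of BMP Smads, and their proteins bind E proteins and other basic helix-loop-helix factors without binding DNA. In hair follicles BMP signals accompany rest, and BMP antagonists from the papilla are known to take part in the start of growth.

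In the GRCm38 build, Nog (ENSMUSG00000048616) lies on chromosome 11 at 89300638 to 89302332, Grem1 (ENSMUSG00000074934) on chromosome 2 at 113746164 to 113758646 and Chrdl1 (ENSMUSG00000031283) on chromosome X at 143285674 to 143394262, all 3 on the minus strand. Bambi (ENSMUSG00000024232) lies on the plus strand of chromosome 18 at 3507923 to 3516404. Id1 (ENSMUSG00000042745, chromosome 2, 152736251 to 152737410), Id3 (ENSMUSG00000007872, chromosome 4, 136143497 to 136145755) and Id4 (ENSMUSG00000021379, chromosome 13, 48261228 to 48266026) are on plus strands. Id2 (ENSMUSG00000020644, chromosome 12, 25093799 to 25097140) is on the minus strand. All 8 are protein-coding, and values count reads over the whole gene. Only Id4 shares exon bases with other annotated genes. It shares 82 with the antisense gene A330033J07Rik, whose mean over the 12 libraries was 17.04 normalized counts, and 171 with the noncoding Gm49291, which has no value in the tables. The sources used do not say whether reads were counted by strand, and reads in those bases cannot be assigned to 1 gene.

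The sequence before the start site is shown for Grem1, Id2 and Id4, because BMP Smads are known to bind GC-rich elements near Id genes. RefSeq promoter entries (GRCm38.p6) matched 4 of the 8 genes, Grem1, Id2, Id3 and Id4, and only bases outside annotated exons are printed. Capitals mark GGCGCC, the GC-rich element searched for. Each run reads 5′ to 3′ on the gene's own strand.

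Grem1, chr2:113758649-113758898, minus strand: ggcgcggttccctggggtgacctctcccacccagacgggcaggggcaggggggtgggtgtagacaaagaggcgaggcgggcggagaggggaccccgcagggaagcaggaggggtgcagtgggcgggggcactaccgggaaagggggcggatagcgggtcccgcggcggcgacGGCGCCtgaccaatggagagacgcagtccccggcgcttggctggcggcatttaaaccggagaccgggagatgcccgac

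Id2, chr12:25096254-25096342, minus strand: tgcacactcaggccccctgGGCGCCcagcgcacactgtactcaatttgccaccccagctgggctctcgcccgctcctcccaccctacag

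Id4, chr13:48260866-48261115, plus strand: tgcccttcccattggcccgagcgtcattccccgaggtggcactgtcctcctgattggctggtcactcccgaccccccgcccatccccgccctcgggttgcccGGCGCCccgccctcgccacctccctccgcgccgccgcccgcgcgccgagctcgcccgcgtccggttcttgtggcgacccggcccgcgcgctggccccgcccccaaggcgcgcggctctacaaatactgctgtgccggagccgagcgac

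GGCGCC, which reads the same on both strands, was found in 3 of the 4 windows of 250 bases before the start, at -78 in Grem1, -231 in Id2 and -148 in Id4, and in 9.59% of 32851 RefSeq promoter windows of that length. The Id3 window did not hold these letters. The printed Id2 bases lie between exons of a longer annotated Id2 transcript. The Smad palindrome GTCTAGAC, the Gli consensus TGGGTGGTC and the Tcf/Lef core CTTTGAT, each searched on both strands, had 0 matches in the 4 windows and are held by 0.167%, 0.225% and 3.21% of all windows. The E box CANNTG was found in 1 window, that of Id2, and is held by 66.2% of all. No 2 of these motifs share a position in the 4 windows.

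Libraries held 36323058 to 48926831 reads on genes. Smo lay at 7487 to 8694 normalized counts in P28 Smo*, 5418 to 6144 in P28 WT, 6351 to 7528 in P20 Smo* and 5037 to 5225 in P20 WT, so the labelled genotypes did not overlap at either age. Gli1, a direct Hedgehog target, lay at 4071 to 4435, 1396 to 1581, 3665 to 5323 and 1022 to 2245 in the same order. P28 Smo* replicate 3 stood apart, with 15453 genes with a read against 17337 to 17926 in the other libraries. Its summed level over 16 dermal papilla markers was 52205 normalized counts, against 240138 and 370064 in its replicates. This sum was 454074 to 542594 in P28 WT, 79075 to 103528 in P20 Smo* and 63744 to 84912 in P20 WT, and 0 of the 16 markers were at 0 throughout any group. Hhip, on that list, lay at 13606 to 14815 in P20 Smo* and 1039 to 1528 in P20 WT, so the sum itself carries a genotype difference. The library medians of the 16 markers overlapped at P20, at 1158 to 2021 in Smo* and 1614 to 3009 in WT. Of other cell types, 15 keratinocyte markers summed to 2066 to 3263 normalized counts in P28 Smo*, 1900 to 2079 in P28 WT, 2583 to 3387 in P20 Smo* and 2712 to 4276 in P20 WT, led by Itga6, and 12 hair matrix and shaft markers to 256 to 606, 616 to 994, 320 to 450 and 325 to 367 in the same order, led by Msx2 or Tchh. Within the matrix list Shh and Hoxc13 did not exceed 3.12 and 3.31. Itga6 weighed heavily in the keratinocyte sum, at a mean of 1840 in P28 Smo* and 720 in P28 WT. Over 14 tested keratinocyte markers the median log2 fold change of P28 Smo* over WT was -0.99. Of these 1 rose and 0 fell in limma, with 8 at an unadjusted p under 0.05 (26.4% of all genes). Sums over 13 dermal fibroblast markers were 416060 to 535707 in P28 Smo* and 331898 to 556161 in P28 WT. At P20 they did not overlap, at 354816 to 387424 in Smo* and 483222 to 485364 in WT. Of the 13, 0 rose and 1 fell at P20 in limma (0.696% of all genes called). An unadjusted p under 0.05 was found for 8 of them (11.4% of all genes). Within P28 Smo*, replicate 3 had the highest fibroblast sum, at 535707. It was also highest for smooth muscle and dermal sheath markers (38910, against 26950 and 28287) and adipocyte markers (29072, against 15774 and 13303). For Schwann cell markers it was lowest (14500, against 19892 and 21628). The part of these lists in the members' differences was not tested. In bulk RNA, fewer cells of a type and less RNA per cell cannot be told apart. Results that rest on P28 Smo* replicate 3 are given with and without it.

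Of the 8 genes, 3 passed the test at P28 in Smo* over WT (limma with a mean-variance trend on log2(normalized count + 1), Benjamini-Hochberg adjusted p under 0.05). Nog and Bambi were lower and Chrdl1 higher, and 8.9% of all genes tested passed, 4.85% lower and 4.05% higher. At P20 no member passed in limma, edgeR, DESeq2 or the authors' deposited table, against 0.696% of all genes in limma and 2.13% in that table. Unadjusted p was under 0.05 for 2 members at P20, Bambi and Chrdl1, and for 11.4% of all genes. Between the ages, Nog, Bambi and Id2 were higher in P28 WT than in P20 WT, 3 of 8 with 25.4% of all genes called and 13.5% called higher. In Smo* cells Id2 was the 1 member of 8 that passed, higher at P28, with 3.46% of all genes called and 1.98% called higher. Groups did not overlap for 3 members in P28 Smo* over WT (33.4% of all genes), 1 in P20 Smo* over WT (16.4%), 2 in P28 over P20 for Smo* (24.4%) and 4 for WT (45.1%). The median log2 fold change of the 8 members was -0.32 for P28 Smo* over WT, -0.03 for P20 Smo* over WT, 0.37 for P28 over P20 in Smo* and 0.68 in WT, with medians of all genes between -0.01 and 0.00.

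**Figure D1:**
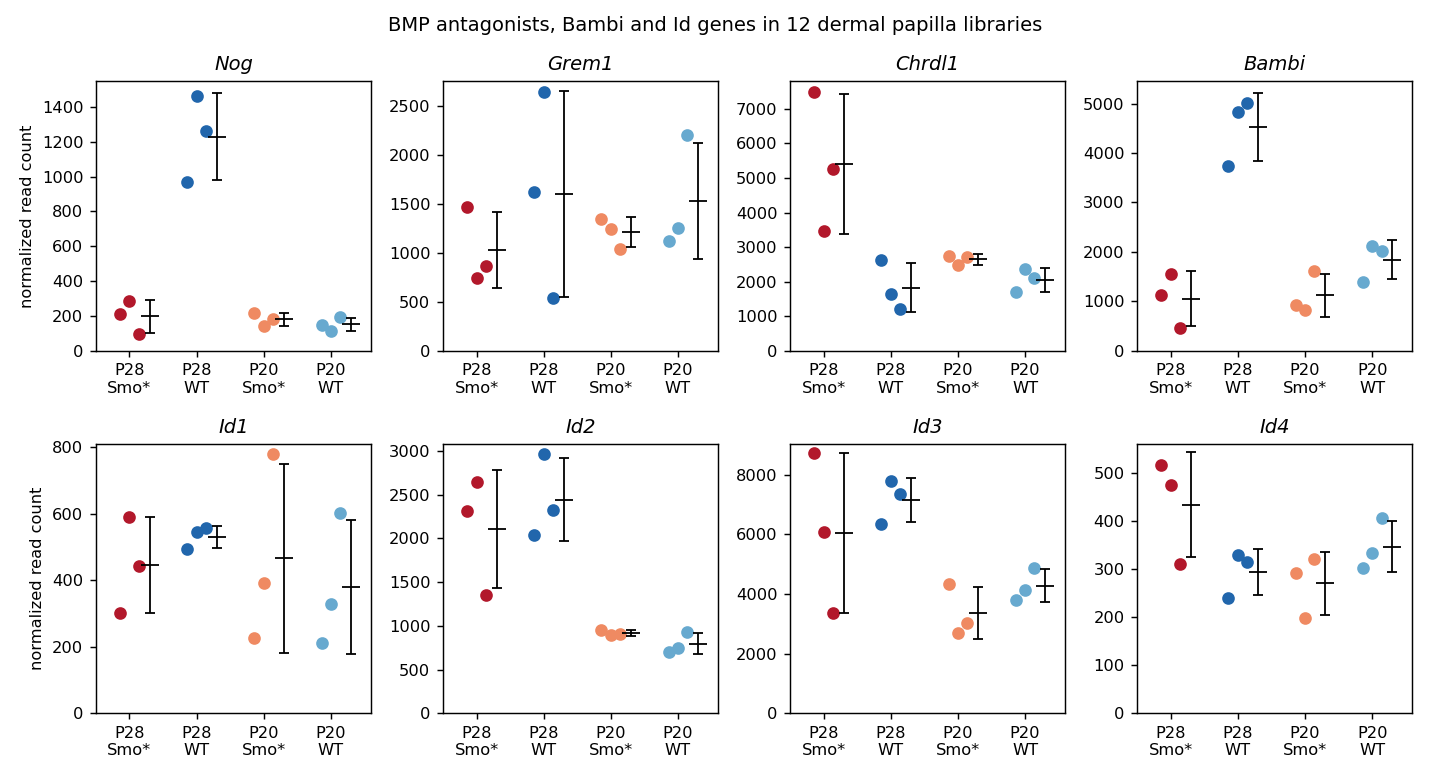
Normalized read count of each of the 8 genes in every library (y axis, linear, from 0), with P28 Smo*, P28 WT, P20 Smo* and P20 WT from left to right, 1 point per library and the mean ± SD beside the points. Nog and Bambi in P28 WT lie above every other library, at 967 to 1463 and 3732 to 5017 normalized counts.

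Nog encodes noggin, a secreted protein that binds BMP ligands such as Bmp4 and Bmp2. It had 210.5, 283 and 96.3 normalized counts in P28 Smo* and 967, 1463 and 1259 in P28 WT. At P20 it had 218, 139 and 181 in Smo* and 149, 114 and 192 in WT. The 3 P28 WT libraries were each above all 9 others, which ranged from 96.3 to 283, and P28 Smo* overlapped both P20 groups. At P28 Nog averaged 196 ± 94.0 in Smo* and 1229.7 ± 249 in WT (SD, n = 3 each), 6.26-fold lower in Smo* (log2 fold change -2.75, SE 0.37, 95% interval -3.604 to -1.90, limma adjusted p = 0.00409). It averaged 179 ± 39.3 in P20 Smo* and 152 ± 38.7 in P20 WT, a log2 fold change of 0.25 (95% interval -0.34 to 0.83, limma adjusted p = 0.783). In WT cells Nog was 8.10-fold higher at P28 than at P20 (log2 fold change 3.02, SE 0.35, limma adjusted p = 1.00e-04). In Smo* cells the same comparison gave 0.02 (95% interval -0.73 to 0.77, 0.602-fold to 1.71-fold, limma adjusted p = 0.980). Without P28 Smo* replicate 3 that value was 0.47 (SE 0.27, limma adjusted p = 0.311).

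The genotype difference of Nog itself differed between the ages (P28 minus P20 -3.00 on the log2 scale, SE 0.49, 95% interval -4.06 to -1.93, limma adjusted p = 0.00597), the 1 member of 8 that passed this test, which 4.72% of all genes passed and 2.83% passed with a lower value. Without P28 Smo* replicate 3, the library with the lowest Nog and the lowest papilla marker sum, the P28 log2 fold change was -2.31 (limma adjusted p = 0.000498) and the difference between ages -2.56 (limma adjusted p = 0.00234). Leaving out each of the 6 P28 libraries in turn gave -3.08 to -2.31 with limma adjusted p of 0.000498 to 0.0315, and all 12 other settings also called Nog lower. The authors' deposited table gives Nog a log2 fold change of -2.35, turned to Smo* over WT, with adjusted p = 1.3e-13 at P28, where it also calls Bambi and Chrdl1, 3 of 8 members against 16.8% of all genes. Of the 16 papilla markers, 0 rose and 5 fell in P28 Smo* over WT, with a median log2 fold change of -1.94, and their part in the Nog difference was not tested.

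Bambi, the pseudoreceptor, is itself a known target of BMP and Wnt signals. It had 1134, 1556 and 457 normalized counts in P28 Smo* and 3732, 4823 and 5017 in P28 WT. P20 Smo* libraries had 933, 816 and 1606, and P20 WT libraries 1385, 2126 and 2022. P28 WT was again above all other libraries, and the P20 genotypes overlapped through Smo* replicate 3 and WT replicate 1. At P28 the means were 1049 ± 555 in Smo* and 4524 ± 693 in WT, 4.31-fold lower in Smo* (log2 fold change -2.27, SE 0.40, 95% interval -3.18 to -1.36, limma adjusted p = 0.0130). At P20 they were 1118 ± 427 in Smo* and 1844 ± 401 in WT (log2 fold change -0.76, SE 0.26, 95% interval -1.37 to -0.15, limma adjusted p = 0.321), which did not pass. The difference between these 2 genotype effects, -1.51 (SE 0.54, 95% interval -2.68 to -0.34), did not pass either (limma adjusted p = 0.129). With a library left out it passed in 1 of 12 settings, without P28 Smo* replicate 2 (limma adjusted p = 0.0461), and in 0 of 10 other settings. Without P28 Smo* replicate 3 it was -0.99 (limma adjusted p = 0.151).

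Over stage, Bambi was 2.45-fold higher in P28 WT than in P20 WT (log2 fold change 1.31, SE 0.38, limma adjusted p = 0.0247). In Smo* cells it gave -0.20 (95% interval -1.03 to 0.63, limma adjusted p = 0.796), and 0.31 without P28 Smo* replicate 3 (limma adjusted p = 0.524). Without that library the P28 genotype difference was -1.76 (limma adjusted p = 0.000875). The P28 call ended without P28 WT replicate 2 (limma adjusted p = 0.0637) or P28 WT replicate 3 (0.0580), with log2 fold changes of -2.22 and -2.19. The WT stage call ended without P20 WT replicate 1 or 3 or P28 WT replicate 2 or 3, with log2 fold changes of 1.11, 1.39, 1.26 and 1.23 and limma adjusted p up to 0.0869. With no variance trend both calls ended, at P28 with limma adjusted p = 0.0583 and over stage in WT with 0.05.

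Chrdl1 encodes chordin-like 1, also called ventroptin, a secreted protein that binds BMP ligands through cysteine-rich repeats. It had 7489, 3470.1 and 5256 normalized counts in P28 Smo* and 2612, 1647 and 1213 in P28 WT. P20 Smo* libraries had 2746, 2471 and 2725, and P20 WT libraries 1688, 2367 and 2103. Each Smo* library was above each WT library of its age, and each P28 Smo* library above each P20 Smo* library. At P28 Chrdl1 averaged 5405 ± 2014 in Smo* and 1824 ± 716 in WT, 2.96-fold higher in Smo* (log2 fold change 1.57, SE 0.33, 95% interval 0.80 to 2.34, limma adjusted p = 0.0262). The P20 means were 2648 ± 153 in Smo* and 2053 ± 343 in WT (log2 fold change 0.38, SE 0.14, 95% interval 0.06 to 0.70, limma adjusted p = 0.349), and did not pass.

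The P28 call of Chrdl1 ended without Smo* replicate 1, the highest library (log2 fold change 1.30, limma adjusted p = 0.0675), without WT replicate 2 (1.53, 0.104) and without WT replicate 3 (1.31, 0.0922). It also ended with no variance trend (0.0872) and with the replicate block (0.0854). It held without P28 Smo* replicate 3 (1.56, limma adjusted p = 0.0368). P28 over P20 was 2.04-fold in Smo* cells (0.96 on the log2 scale, SE 0.28, limma adjusted p = 0.0778), and passed in DESeq2 (1.03, adjusted p = 0.00857) and without P28 Smo* replicate 2 (limma adjusted p = 0.0455). In WT cells it was -0.23 (95% interval -0.85 to 0.39, limma adjusted p = 0.602). The difference of its genotype effects between ages was 1.19 (SE 0.40, limma adjusted p = 0.109), and passed without P28 Smo* replicate 2 (1.48, limma adjusted p = 0.0374) or P28 WT replicate 1 (1.49, limma adjusted p = 0.0392) and in DESeq2 (adjusted p = 0.0397). Endothelial markers also differed at P28: 4 of 13 rose in Smo* and 0 fell, with summed levels of 4420 to 7397 in P28 Smo* and 2273 to 3849 in P28 WT and 0 of 13 at 0 throughout either group. Their part in the Chrdl1 difference was not tested.

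Grem1 encodes gremlin 1, a secreted antagonist of Bmp2, Bmp4 and Bmp7. Its 3 libraries had 1465, 737 and 866 normalized counts in P28 Smo* and 1614, 2636 and 539 in P28 WT. At P20 it had 1348, 1241 and 1040.4 in Smo* and 1115, 1254 and 2199.9 in WT. All groups overlapped, and P28 WT alone held both the highest and the lowest library. Log2 fold changes were -0.43 for P28 Smo* over WT (95% interval -1.65 to 0.79, limma adjusted p = 0.642) and -0.27 for P20 Smo* over WT (-0.83 to 0.28, 0.734). For P28 over P20 they were -0.30 in Smo* (-1.31 to 0.72, limma adjusted p = 0.746) and -0.14 in WT (-1.16 to 0.87, 0.858). Without WT replicate 2 the P28 value was 0.07, so 1 library sets its sign.

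**Figure D2:**
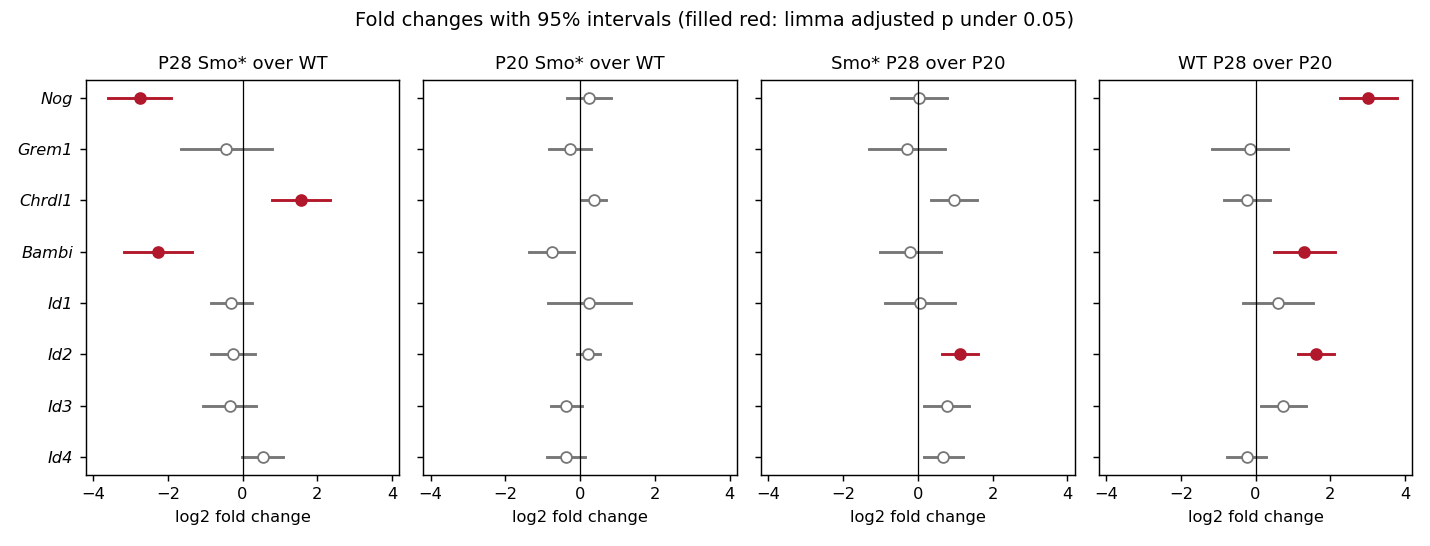
Log2 fold change of each of the 8 genes with its 95% interval from limma (x axis) for P28 Smo* over WT, P20 Smo* over WT, and P28 over P20 in Smo* and in WT cells, from left to right. Filled red points passed an adjusted p of 0.05: Nog, Chrdl1 and Bambi in the first panel, none in the second, Id2 in the third, and Nog, Bambi and Id2 in the fourth.

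Id2 was the 1 Id gene that passed between the ages in limma with all libraries. It had 2314, 2648 and 1349 normalized counts in P28 Smo* and 2044, 2968 and 2321 in P28 WT. P20 Smo* libraries had 953, 893 and 909, and P20 WT libraries 705, 752 and 932. Every P28 library was above every P20 library, and genotypes overlapped at both ages. P28 over P20 was 2.29-fold in Smo* cells (log2 fold change 1.14, SE 0.22, 95% interval 0.66 to 1.62, limma adjusted p = 0.0229) and 3.07-fold in WT cells (1.61, SE 0.22, 95% interval 1.13 to 2.09, limma adjusted p = 0.000345). The difference between the 2 stage effects, Smo* minus WT, was -0.47 (95% interval -1.15 to 0.21, limma adjusted p = 0.407) and did not pass.

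The WT stage difference of Id2 was called in all 12 settings with a library left out. In Smo* cells the call ended without P20 Smo* replicate 1 or 3 or P28 Smo* replicate 1 or 2, with log2 fold changes of 1.17, 1.13, 1.04 and 0.94 and limma adjusted p up to 0.0798. It also ended with no variance trend (limma adjusted p = 0.0521) and in limma on the 6 Smo* libraries alone (0.0874). Without P28 Smo* replicate 3 it was 1.43 (limma adjusted p = 0.000392). Smo* over WT gave -0.26 at P28 (95% interval -0.85 to 0.33, limma adjusted p = 0.560) and 0.21 at P20 (-0.10 to 0.53, 0.617). Without P28 Smo* replicate 3 the P28 value was 0.04. Id2 is known to hold back differentiation in many cell types.

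Id3 had the highest level of the 4 Id genes per kilobase of exon. It had 8707, 6071 and 3353 normalized counts in P28 Smo* and 6333, 7769 and 7354 in P28 WT. P20 Smo* libraries had 4345, 2707 and 3038, and P20 WT libraries 3809.6, 4124 and 4885. P28 WT did not overlap P20 WT, while P28 Smo* overlapped P20 Smo* through its replicate 3. P28 over P20 was 1.67-fold in WT (log2 fold change 0.75, SE 0.28, 95% interval 0.14 to 1.35, limma adjusted p = 0.0700) and 0.77 on the log2 scale in Smo* (SE 0.28, 95% interval 0.16 to 1.38, limma adjusted p = 0.131), and neither passed. With all libraries DESeq2 called both (adjusted p = 0.0325 in WT and 0.0327 in Smo*), and limma on the 6 WT libraries alone called the WT difference (adjusted p = 0.00298). Without P28 Smo* replicate 3 both passed, at 0.75 in WT (limma adjusted p = 0.0115) and 1.14 in Smo* (limma adjusted p = 0.00846). That library enters the WT value only through the shared estimate of spread. Smo* over WT was -0.34 at P28 (95% interval -1.05 to 0.36, limma adjusted p = 0.508), or 0.03 without that library, and -0.37 at P20 (-0.79 to 0.05, 0.509).

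Id1 and Id4 passed no test with all libraries in the fit. Id1, whose protein is known in vessel growth, had 302, 589.9 and 444 normalized counts in P28 Smo*, 493, 544 and 556 in P28 WT, 226, 392 and 780.3 in P20 Smo* and 211, 328 and 602 in P20 WT. Its groups overlapped in every comparison, and the 3 libraries of each P20 group spread by more than those of P28 WT. Log2 fold changes of Id1 were -0.30 for P28 Smo* over WT (95% interval -0.85 to 0.24), 0.24 for P20 Smo* over WT (-0.87 to 1.35), 0.06 for P28 over P20 in Smo* (-0.87 to 1.001) and 0.61 in WT (-0.33 to 1.55), with limma adjusted p of 0.334 to 0.949.

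Id4, best known in neural and bone cells, had 517, 476 and 310.2 normalized counts in P28 Smo* and 239.8, 329 and 314 in P28 WT. P20 Smo* libraries had 292, 198 and 322, and P20 WT libraries 302, 333 and 407. In P28 Smo* replicates 1 and 2 were above all other libraries, and replicate 3 was within the P28 WT range. Smo* over WT was 0.54 at P28 (95% interval -0.0028 to 1.08, limma adjusted p = 0.191) and passed without P28 Smo* replicate 3 (0.76, limma adjusted p = 0.0406). At P20 it was -0.38 (-0.88 to 0.13, limma adjusted p = 0.583), and the difference between the ages was 0.92 (SE 0.34, limma adjusted p = 0.140). P28 over P20 was 0.68 in Smo* (0.16 to 1.20, limma adjusted p = 0.123), and 0.90 without replicate 3 (limma adjusted p = 0.0386). In WT cells it was -0.24 (-0.76 to 0.28, limma adjusted p = 0.510).

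Levels were compared between genes only per kilobase of annotated exon. Id3 was first in every group, at 3374 normalized counts per kb in P28 Smo*, 3993 in P28 WT, 1878 in P20 Smo* and 2386 in P20 WT, and its libraries did not overlap those of the next gene in any group. In P28 Smo* the order went on with Id2 (863), Chrdl1 (799.8), Id1 (384), Grem1 (247), Bambi (207), Nog (116) and Id4 (113), where only Chrdl1 and Id1 among neighbours did not overlap. In P28 WT it was Id2 (1003), Bambi (892), Nog (725), Id1 (458), Grem1 (385), Chrdl1 (269.9) and Id4 (76.5), with gaps between Nog and Id1 and between Chrdl1 and Id4. Bambi ranked 6 of the 8 in P28 Smo*, 3 in P28 WT, 6 in P20 Smo* and 3 in P20 WT, and Nog ranked 7, 4, 7 and 8 in the same order.

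At P20 the genes below Id3 lay closer together. In P20 Smo* they were Id1 (402 normalized counts per kb), Chrdl1 (392), Id2 (377), Grem1 (292), Bambi (220.4), Nog (106) and Id4 (70.3), with gaps between Id2 and Grem1 and between Bambi and Nog. In P20 WT they were Grem1 (367), Bambi (363), Id1 (328), Id2 (327), Chrdl1 (304), Id4 (90.2) and Nog (89.6), with 1 gap, between Chrdl1 and Id4. Other neighbours did not differ beyond the range of their libraries. The summed per-kb level of the 4 Id genes was 4734 ± 1689.6 in P28 Smo*, 5530.2 ± 629 in P28 WT, 2727 ± 419 in P20 Smo* and 3131 ± 545 in P20 WT (SD, n = 3). Id3 made up 69.8% ± 7.41 of that sum in P28 Smo*, 72.3% ± 1.11 in P28 WT, 68.4% ± 9.39 in P20 Smo* and 76.6% ± 3.26 in P20 WT, and Id2 18.6% ± 3.03, 18.0% ± 1.64, 14.004% ± 1.88 and 10.5% ± 0.303 in the same order.

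**Figure D3:**
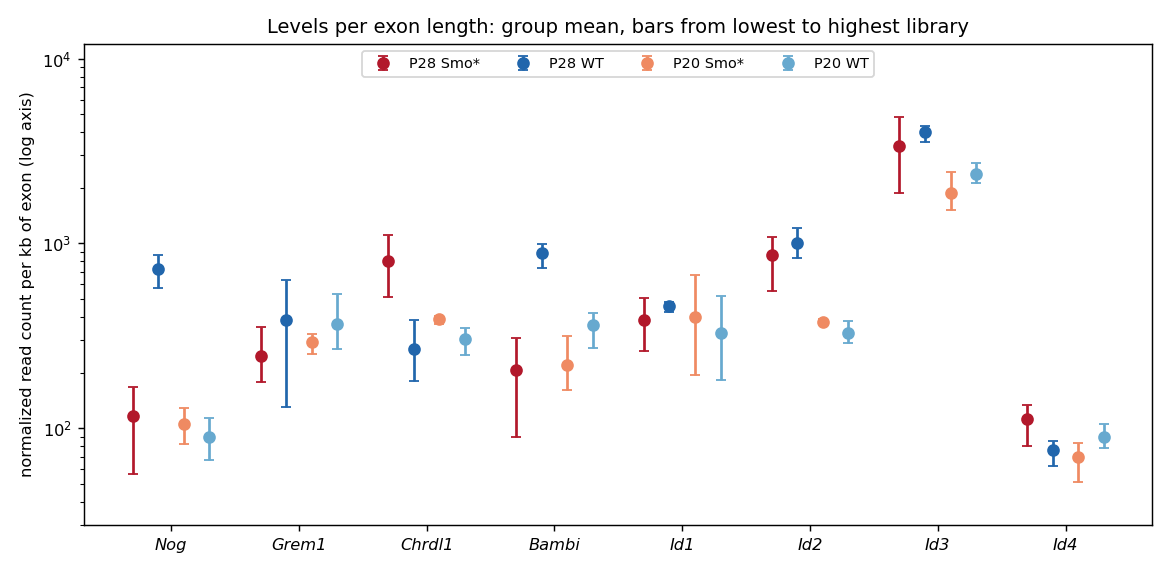
Level of each gene per kilobase of exon (y axis, logarithmic) in P28 Smo*, P28 WT, P20 Smo* and P20 WT, as the mean of 3 libraries with bars from the lowest to the highest. Id3 lies above the other 7 genes in all groups, and Nog and Bambi stand out from their other groups in P28 WT, at 725 and 892 normalized counts per kb.

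Other genes of the pathway were read from 6 lists, and their counts are limma's unless another tool is named. At P28, of 16 other antagonists and extracellular regulators 1 rose in Smo* over WT and 0 fell (median log2 fold change 0.17). The 1 was Sost, which encodes sclerostin, a Wnt and BMP antagonist, at 89.3 ± 26.8 normalized counts in P28 Smo* and 2.45 ± 1.14 in P28 WT (limma adjusted p = 0.00279), a level too near 0 for a fold. Sostdc1, a related secreted antagonist, had 6249.5 ± 6935 in P28 Smo* and 35824 ± 9456 in P28 WT and did not pass (limma adjusted p = 0.0943). DESeq2 also called Fstl1 lower. The authors' deposited table, with 16.8% of all genes called, calls 2 of this list higher and 4 lower, Sostdc1 among them. Of 11 ligands 0 rose and 2 fell (median -0.80): Bmp2, at 570.2 ± 150.4 in P28 Smo* and 1801 ± 219 in P28 WT (log2 fold change -1.69, limma adjusted p = 0.00291), and Bmp3, at 3679 ± 1353 in P28 Smo* and 10876 ± 795 in P28 WT (-1.64, limma adjusted p = 0.00958). The Bmp3 call ended without P28 WT replicate 2 (limma adjusted p = 0.0531). DESeq2, with 2312 genes called in all and 52.4% of them higher, called 5 ligands lower and 0 higher.

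Downstream of the ligands, 1 of 11 receptors and co-receptors rose and 0 fell at P28 (median 0.08): the co-receptor Rgmb (log2 fold change 0.65, limma adjusted p = 0.0233). DESeq2 and the authors' deposited table each call 3 of this list higher and 1 lower (Acvrl1, Bmpr1b, Eng and Rgmb in all). Of 10 Smads and Smad ubiquitin ligases 0 rose and 1 fell (median -0.10): Smad6, an inhibitory Smad that BMP signals are known to switch on, at 503 ± 169 in P28 Smo* and 1334 ± 266 in P28 WT (-1.44, limma adjusted p = 0.0146). DESeq2 and the authors' deposited table also call Ski, a Smad corepressor, higher. Of 13 other BMP response genes 0 rose and 3 fell (median -0.13). They were Smad6, Tnfrsf11b, the decoy receptor osteoprotegerin (-1.72, limma adjusted p = 0.00165), and Sp7, the bone transcription factor osterix (-1.16, limma adjusted p = 0.0262). Of 8 E proteins and other partners of Id proteins 2 rose and 0 fell (median 0.45): Twist1 (0.48, limma adjusted p = 0.0273) and the E protein Tcf3 (0.58, limma adjusted p = 0.0394). The median over all genes was -0.01, and 8.9% of all genes passed.

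With a library left out in turn, Sost, Bmp2 and Tnfrsf11b were called in all 6 settings. Smad6 lost its call without P28 WT replicate 2 or 3, Rgmb without Smo* replicate 1 or WT replicate 2 or 3, and Sp7 without Smo* replicate 1 or any WT replicate. Tcf3 kept it only without Smo* replicate 1, and Twist1 only without Smo* replicate 3. The calls of Smad6, Rgmb, Sp7, Tcf3 and Twist1 each also ended with no variance trend and with the replicate block (limma adjusted p up to 0.108). Of 8 Hedgehog targets 6 rose at P28 (median 1.72) and 6 at P20 (median 2.17), and 0 fell at either age. Of 20 immediate early genes 2 rose at P28, Egr3 (3.46) and Nr4a1 (1.52), and 0 passed in limma at P20, where 9 had an unadjusted p under 0.05. These genes are known to respond to cell handling, and their part in the other differences was not tested.

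**Figure D4:**
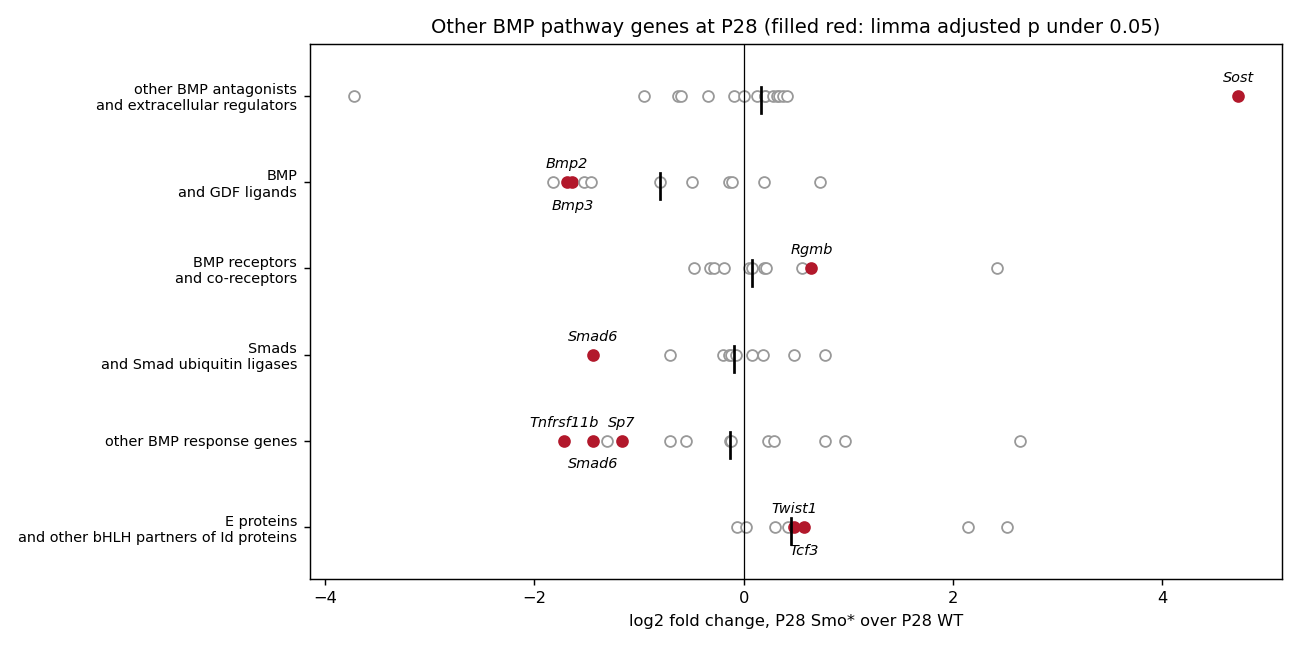
Log2 fold change of P28 Smo* over P28 WT (x axis) for the tested genes of 6 lists, 1 point per gene, with genes past a limma adjusted p of 0.05 in red and named, and a black tick at each list's median. Sost lies farthest to the right, and the ligand median is the lowest of the 6 lists at -0.80.

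At P20, where 0.696% of all genes passed in limma and 11.4% had an unadjusted p under 0.05, Smo* over WT called 0 of 15 other antagonists, 0 of 10 ligands, 0 of 11 receptors, 0 of 10 Smads and ligases and 0 of 6 partners of Id proteins in limma, with an unadjusted p under 0.05 for 9, 6, 1, 3 and 1 of them. In edgeR all 5 counts were also 0. DESeq2, with 480 genes called in all, called 3 antagonists (Sost higher, Chrd and Tll1 lower), 3 ligands (Gdf11 higher, Bmp2 and Bmp5 lower), 1 partner (Hes1, lower), 0 receptors and 0 Smads. The authors' deposited table, with 2.13% of all genes called, calls the same 3 antagonists, Bmp2 and Gdf11. Sost averaged 83.9 ± 40.4 in P20 Smo* and 15.0 ± 3.92 in P20 WT (log2 fold change 2.33, limma adjusted p = 0.056). Bmp2 averaged 1108 ± 470 in P20 Smo* and 2130 ± 133 in P20 WT (-1.03, limma adjusted p = 0.184). Of 12 other response genes 1 rose, Runx2, a bone transcription factor, at 1349 ± 224 in P20 Smo* and 662 ± 77.4 in P20 WT (log2 fold change 1.02, limma adjusted p = 0.0325). That call held in 1 of 6 settings with a library left out, without P20 Smo* replicate 3. DESeq2 and the authors' deposited table each call 3 of these response genes higher (Hey1, Runx2 and Sp7) and 0 lower.

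Between the ages in WT cells, ligands split: Bmp3 averaged 10876 ± 795 normalized counts in P28 WT and 953 ± 55.3 in P20 WT (log2 fold change 3.51), Bmp6 4691 ± 364 in P28 WT and 301 ± 53.2 in P20 WT (3.97) and Gdf10 5749 ± 131 in P28 WT and 1619.6 ± 381 in P20 WT (1.86). Bmp7 was lower, at 2065 ± 269 in P28 WT and 4899 ± 424 in P20 WT (-1.25). Limma adjusted p for these 4 was 0.000544 or less, and 4 of 10 ligands rose and 2 fell, with 25.4% of all genes called and 13.5% called higher. Of 16 other antagonists 4 rose, among them Sostdc1 (3.87, limma adjusted p = 0.0161) and Fstl1 (0.71, limma adjusted p = 0.00546), and 4 fell, among them Tll1, a protease that cleaves chordin (-1.44, limma adjusted p = 0.000319). Of 13 other response genes 6 rose and 1 fell. They included Tnfrsf11b (3.27), Sp7 (3.602), Smad6 (1.93) and Hey1, a Notch and BMP target (1.55), with limma adjusted p of 0.000943 or less. Of 6 partners of Id proteins 0 rose and 4 fell, by -0.48 for Tcf12 to -0.69 for Twist1, and 0 of 11 receptors passed in limma or edgeR (3 at an unadjusted p under 0.05, and 1, Neo1, in DESeq2). Other lists moved with this comparison: 11 of 16 papilla markers rose and 0 fell (median 2.86), 0 of 20 immediate early genes rose and 7 fell (median -0.53, Egr3 -3.51), and 0 of 12 endothelial markers rose and 3 fell (median -1.20). Endothelial markers summed to 2273 to 3849 in P28 WT and 2607 to 4941 in P20 WT. The part of these lists in the differences was not tested.

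In Smo* cells the same stage comparison called fewer genes of each list in limma, except for the receptors, and the lists' counts were not tested against each other. Gdf10 (log2 fold change 1.62, limma adjusted p = 0.0130), Bmp6 (1.83, limma adjusted p = 0.0311) and Bmp3 (1.26, limma adjusted p = 0.0335) rose and Bmp7 fell (-0.99, limma adjusted p = 0.0200), with 3 of 10 ligands higher and 2 lower, where 3.46% of all genes were called and 1.98% called higher. The type I receptor Bmpr1b rose (2.86, limma adjusted p = 0.0285), at 126 ± 78.1 in P28 Smo* and 13.7 ± 4.204 in P20 Smo*, and so did the response gene Msx1 (1.13, limma adjusted p = 0.0332). Of 16 other antagonists 1 rose, Kcp (0.88, limma adjusted p = 0.0389). Of 10 Smads and ligases 0 passed in limma, edgeR or DESeq2 (1 at an unadjusted p under 0.05), and of 6 partners of Id proteins 1 fell, Tcf4 (-0.66, limma adjusted p = 0.0241). The ligand, Bmpr1b, Msx1, Kcp and Tcf4 calls each ended without P28 Smo* replicate 1 and in limma on the 6 Smo* libraries alone. With a library left out, Kcp was called in 2 of 12 settings, the ligand Bmp4 in 4, and Bmp6 and Msx1 in 7 each. Bmp3, Bmpr1b and Tcf4 were called in 8 each, Bmp7 in 10 and Gdf10 in 11. The counts depend on the tool. DESeq2, with 1615 genes called in all, called 5 antagonists higher (Fst, Fstl1, Kcp, Sostdc1 and Vwc2) and 0 lower. It called 4 ligands higher and 3 lower, against 4 and 2 in WT, and 2 receptors higher and 1 lower. Of the response genes it called 4 higher and 1 lower. In edgeR the antagonists Fst and Kcp were called. In the same comparison 1 of 12 endothelial markers rose and 0 fell (median 1.33, with 9 of 12 at an unadjusted p under 0.05), markers of smooth muscle and the dermal sheath had 3 of 13 higher and 1 lower, and 1 of 16 papilla markers rose and 0 fell (median 0.99). Their part in it was not tested.

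The genotype effect differed between the ages for some genes of these lists, tested as P28 minus P20, with 4.72% of all genes called. It was lower at P28 for the ligands Bmp3 (-2.25, limma adjusted p = 0.00796), Gdf11 (-1.14, 0.0133) and Bmp6 (-2.14, 0.0484), and for Smad6 (-1.998, 0.0238), Sp7 (-3.05, 0.00641) and Tnfrsf11b (-2.27, 0.00716), as it was for Nog. It was higher for Tll1 (1.09, limma adjusted p = 0.0441), Chrd, which encodes chordin (0.63, 0.0479), and the receptor Acvrl1 (0.81, 0.0498). The Bmp3, Gdf11, Sp7 and Tnfrsf11b calls held in all 12 settings with a library left out. That of Smad6 ended without P20 Smo* replicate 2 or 3 or P28 WT replicate 2 or 3, and those of Bmp6, Tll1, Chrd and Acvrl1 held in 2, 3, 1 and 3 settings. With no library left out, these 4 calls each ended with the replicate block, with no variance trend and with no filter on low values, and those of Bmp6 and Acvrl1 also in edgeR, with adjusted p up to 0.115. The Smad6 call also ended with no variance trend (limma adjusted p = 0.0557). In the same test 0 of 16 papilla markers were higher and 4 lower (median -1.73), 4 of 12 endothelial markers higher and 0 lower (median 2.43) and 3 of 20 immediate early genes higher and 0 lower (median 0.73), and their part in it was not tested.

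Among 12017 genes with a mean over 12 libraries of 50 or more, the 2 genes most like each member by Pearson's r of log2 values are given as a description, since libraries of a group share stage, sex and genotype. Nog was most like Robo1, a guidance receptor (r = 0.985), and Itpr1, a calcium channel (0.983). Robo1 averaged 5113 normalized counts in P28 Smo*, 12872 in P28 WT, 4651 in P20 Smo* and 4798 in P20 WT. Bambi was most like the death receptor Tnfrsf21 (0.977) and Scrn3 (0.9749), and Chrdl1 like the exchange factor Arhgef10 (0.955) and the lipid transfer protein Pltp (0.945). Id2 was most like Hey2, a Notch target (0.974), which averaged 1771 in P28 Smo*, 2176 in P28 WT, 236 in P20 Smo* and 122 in P20 WT, and like Luzp2 (0.971). Id3 was most like Stau2 (0.955) and Itprid2 (0.947), and Id4 like Pcdh17 (0.945) and Rnd1 (0.873). Id1 had Igfals (0.891) and Nes (0.877), and Grem1 had the lowest likeness, Wdr7 (0.862) and Entpd1 (0.806).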

How the data were processed

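RNA of 12 libraries of sorted mouse dermal papilla cells was analysed, 3 per group. Per the labels' protocols, the RNeasy Plus Micro kit gave the RNA, 100 ng was depleted of ribosomal RNA, and the strand-marking NEBNext Ultra Directional kit gave the libraries. Per the submitters' processing notes, the tools were Trimmomatic, TopHat2 (version 2), HTSeq and DESeq2, with no roles given, and the builds GRCm38.p4 and mm10. The 2 deposited tables, 1 per age, hold a normalized read count (unit: signal) per gene and library, which the authors made by dividing counts by 1 factor per library: divided by that step, 100% of values came within 0.01 of a whole number, which gives back the reads. The deposited mean equals that over all 12 libraries, so both tables were normalized together. They also hold the authors' log2 fold change (WT over Smo*, turned round here) with its SE, a test statistic (a score), p-values and adjusted p-values. All sample columns were used, leaving 0. GENCODE symbols matched 25562 identifiers (98.7%).

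Tests used limma 3.58.1 (R 4.3.3), a variance trend and log2(value + 1), on genes whose mean was 10 or more. Genotype was tested over the 6 libraries of an age, stage and the difference between ages in 1 fit of 12. Adjustment was Benjamini-Hochberg over all genes tested, at 0.05. Fold changes on this scale understate those of low genes, and folds of means are linear. Alternatives were TMM and quantile scaling, no filter or a mean of 50, pseudocounts of 0.5 and 5, no variance trend, edgeR 4.0.16 and DESeq2 1.42.0 on recovered reads, the authors' adjusted p, other sample sets, each library left out and a replicate block. An exact permutation test of 3 against 3 cannot go below p = 0.1. All 8 members were named in each comparison, with up to 4 genes of each pathway list by adjusted p. The members and lists were chosen with earlier results of these data known. The tests were tested on simulated counts. Libraries were matched to columns by title number, and replicates were numbered in accession order.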

Additional observations from a re-analysis of the deposited data

Results flagged for a closer look

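The genotype effect of Nog, Smo* over WT, differed between the ages by a test of the difference itself: P28 minus P20 was -3.00 on the log2 scale (SE 0.49, limma adjusted p = 0.00597). It was -2.75 at P28 and 0.25 at P20. With each of the 12 libraries left out in turn the difference was -3.33 to -2.56, with limma adjusted p of 0.00234 to 0.0216. Labelled stage differs between the genotypes at P28 and not at P20, and sex differs between the ages. Age, sex and this stage gap therefore cannot be told apart. With 3 libraries per group no single library was tested as an outlier.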

How the results depend on the processing

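For the members, 753 values under an alternative kept their direction and their side of the threshold, 19 lost the call, 14 gained it and 30 changed sign. None of those that changed sign was called as reported. Nog kept its calls at P28, over stage in WT and for the difference between ages in every alternative run.

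Where leaving out 1 library changed a sign, the members' lowest and highest log2 values follow. For P20 Smo* over WT they were -0.465 and 0.0250 for Grem1 and -0.220 and 0.671 for Id1. For P28 Smo* over WT they were -1.08 and 0.0684 for Grem1, -0.451 and 0.0357 for Id2 and -0.659 and 0.0290 for Id3. For P28 over P20 in Smo* they were -0.307 and 0.465 for Nog, -0.571 and 0.313 for Bambi and -0.365 and 0.526 for Id1, and in WT -0.640 and 0.504 for Grem1 and -0.524 and 0.0292 for Chrdl1. For the difference between ages they were -0.802 and 0.342 for Grem1 and -0.292 and 0.396 for Id3. Id1 for stage in Smo* was -0.0766 in edgeR and -0.0676 in DESeq2, Grem1 for stage in WT 0.0691 in edgeR and 0.0686 in DESeq2, and Id3 for the difference between ages -0.0364 with quantile normalization.

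With no variance trend, calls over all genes were 638 at P28 (1313 as reported), 9 at P20 (102), 225 for stage in Smo* (511) and 384 for the difference between ages (698). Members called were then 1 at P28 (3 as reported) and 0 for stage in Smo* (1). DESeq2 called 2312 genes at P28, 480 at P20, 1615 for stage in Smo* and 1482 for the difference between ages, with 3 members for stage in Smo* and 2 for the difference between ages (1). The authors' deposited table called 2880 genes at P28 and 342 at P20, limma on all 12 libraries 2058 at P28, and limma on the 6 Smo* libraries 69 genes and 0 members for stage. The cause of these shifts was not tested. The share of calls higher in Smo* was 45.5% at P28 and 69.6% at P20, against 52.4% and 53.5% in DESeq2.

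With 1 library left out, calls ranged from 461 genes (without WT replicate 3) to 1619 and 1 to 4 members at P28, and from 8 genes (without WT replicate 2) to 129 and 0 members at P20. For stage in Smo* they ranged from 49 genes (without P28 Smo* replicate 1) to 1049 (without P28 Smo* replicate 3) and 0 to 3 members. For stage in WT they ranged from 2336 to 4423 genes and 2 to 4 members, and for the difference between ages from 254 to 922 genes and 1 to 3 members, with the lower gene counts without P28 WT replicate 3. The median of all genes moved by less than 0.1 under each scaling.

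The labels give no shared replicate numbers, so a replicate block joined Smo* and WT libraries of an age in pairs by title number. The pairing with the smallest summed gap was taken, which is not always the nearest number. At P28 it joined Smo* replicate 3 (709) to WT replicate 2 (1138) and Smo* replicate 1 (272) to WT replicate 3 (698), although 698 is nearest to 709. Their deviations from the group means correlated at 0.0899 to 0.340 at P20 and at -0.241 to -0.0491 at P28, with 2 of the 3 pairs over 0.1 at P20 and 0 of 3 at P28. Since not every pair was over 0.1, the numbers were not taken to pair the libraries, and whether the 2 P20 pairs share a source was not tested. A P28 block with 709 joined to 698 was not run, so these P28 values do not speak for that pairing. The block gave 645 genes at P28 (38.0% higher), 239 at P20 (54.0% higher) and 402 for the difference between ages, and Chrdl1 at P28 then had limma adjusted p = 0.0854.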
